A study of Rattus norvegicus with 16 samples.

Results

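The taste receptor genes were followed in the gustatory cortex (GC), the part of the insular cortex that processes taste, of rats that had drunk water or saccharin. Members were all probe sets that the array annotation pairs with exactly 1 gene whose symbol begins with Tas1r or Tas2r. This rule gave 27 probe sets for 27 genes, 2 of them Tas1r and 25 Tas2r, of the 14497 genes that 15209 of the array's 28826 probe sets measure singly. The 16 Affymetrix arrays held mRNA signals of 16 male Wistar Hola rats, 1 array per rat, in 4 groups of 4. All rats had been kept on restricted water and trained for 3 days to drink from pipettes. On the last day they drank water, a taste they knew, or 0.1% saccharin, which was new to them, and the GC was taken 1 h or 3 h following drinking. The sample labels give 2 months as their age and the methods of the study give an older range. The groups are called by taste and time, as in water 1 h or saccharin 3 h, and no group had gone without drinking. Arrays numbered C365 to C372 are the 3 h rats and C373 to C380 the 1 h rats, and an effect of the numbering therefore cannot be told apart from one of time.

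Taste receptors are G protein-coupled receptors of the taste buds. The Tas1r proteins work in pairs, Tas1r2 with Tas1r3 for sweet compounds, saccharin among them, and Tas1r1 with Tas1r3 for amino acids (umami), while the Tas2r proteins are the bitter receptors. In taste cells both kinds act through the G protein alpha subunit gustducin (Gnat3), phospholipase C (Plcb2), the IP3 receptor Itpr3 and the cation channel Trpm5, and the cell then releases ATP through a channel that contains Calhm1. Transcripts of these receptors have also been described outside the mouth, the brain included. The single probe set for Tas1r2, the sweet receptor's own subunit, is paired with 2 genes in the annotation (Tas1r2 and Aldh4a1), so it is no member and its signal is not given.

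Most bitter receptor genes are compact and lie near one another, and relatives that are alike in sequence could share probe signal on an array. All 27 members were found in RefSeq (rat assembly GRCr8), which lists 35 protein-coding Tas2r genes and 3 Tas1r genes, so that 10 Tas2r genes were not analysed here. Of the 25 Tas2r gene models, 24 have a length that is a multiple of 3, between 885 and 1008 bases, which is a coding length with no UTR, and 23 of the 24 with a sequence window begin at ATG. The exception in length is Tas2r137, whose model of 13252 bases overlaps that of Tas2r108. The model of Tas2r140 overlaps that of Tas2r103, which is no member. The signals of the genes in both overlaps are uncertain to that extent. Within the first 50 bases, the 253 pairs of these 23 genes matched at 5 to 40 positions, with a median of 17. The sequences of the 2 pairs with the most matching positions in these 50 bases are given. They carry capitals for bases that are the same in both genes and lower case for bases that differ. Tas2r105, a receptor for cycloheximide in the mouse, and its relative Tas2r107 matched at 40 of 50 bases.
Tas2r105: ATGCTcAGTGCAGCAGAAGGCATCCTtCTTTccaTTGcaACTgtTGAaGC
Tas2r107: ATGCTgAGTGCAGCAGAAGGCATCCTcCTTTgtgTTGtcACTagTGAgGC
Tas2r110 and Tas2r123 matched at 34 of 50 bases.
Tas2r110: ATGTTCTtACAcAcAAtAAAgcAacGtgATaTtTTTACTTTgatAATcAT
Tas2r123: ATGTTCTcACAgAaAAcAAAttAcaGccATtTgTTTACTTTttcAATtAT
In GRCr8 these stretches are chr4:167086979-167087028 for Tas2r105, chr4:167031958-167032007 for Tas2r107, chr4:167984731-167984780 for Tas2r110 and chr4:168009279-168009328 for Tas2r123, all on the minus strand. They are the coding starts of the genes and not the array's probes, whose sequences were not used here. Correlation of the signals within alike pairs varied. After the group means were taken off, the 16 arrays gave a correlation of -0.04 between Tas2r105 and Tas2r107 and of 0.01 between Tas2r110 and Tas2r123. The next pairs by matching bases gave -0.17 for Tas2r121 with Tas2r124 (32 of 50), 0.57 for Tas2r124 with Tas2r13 (32 of 50) and 0.50 for Tas2r126 with Tas2r143 (31 of 50), beside a median of 0.0837 over all pairs of members. The part of shared probe signal in these values was not tested.

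Every taste receptor probe set was dim. Signals are log2 values after robust multi-chip averaging (RMA), and the median over all probe sets was 5.08 to 5.17 on the 16 arrays. Measured against the median of the same array, 0 of 27 members lay above it on average and 0 on any single array, whereas 62.4% of all probe sets paired with 1 gene had a mean above it. The median member stood at -2.24 on the log2 scale against the array median, and the median probe set with 1 gene at 1.03. The member means ran from 2.05 to 4.06, which placed them between percentile 0.59 and percentile 35.0 of all probe sets, with a median at percentile 13.1. Probe sets differ in how strongly they bind, and the deposited values carry no detection call. These levels are therefore signals. They do not rank the genes by amount of RNA, and they do not tell whether a transcript was absent.

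**Figure D1:**
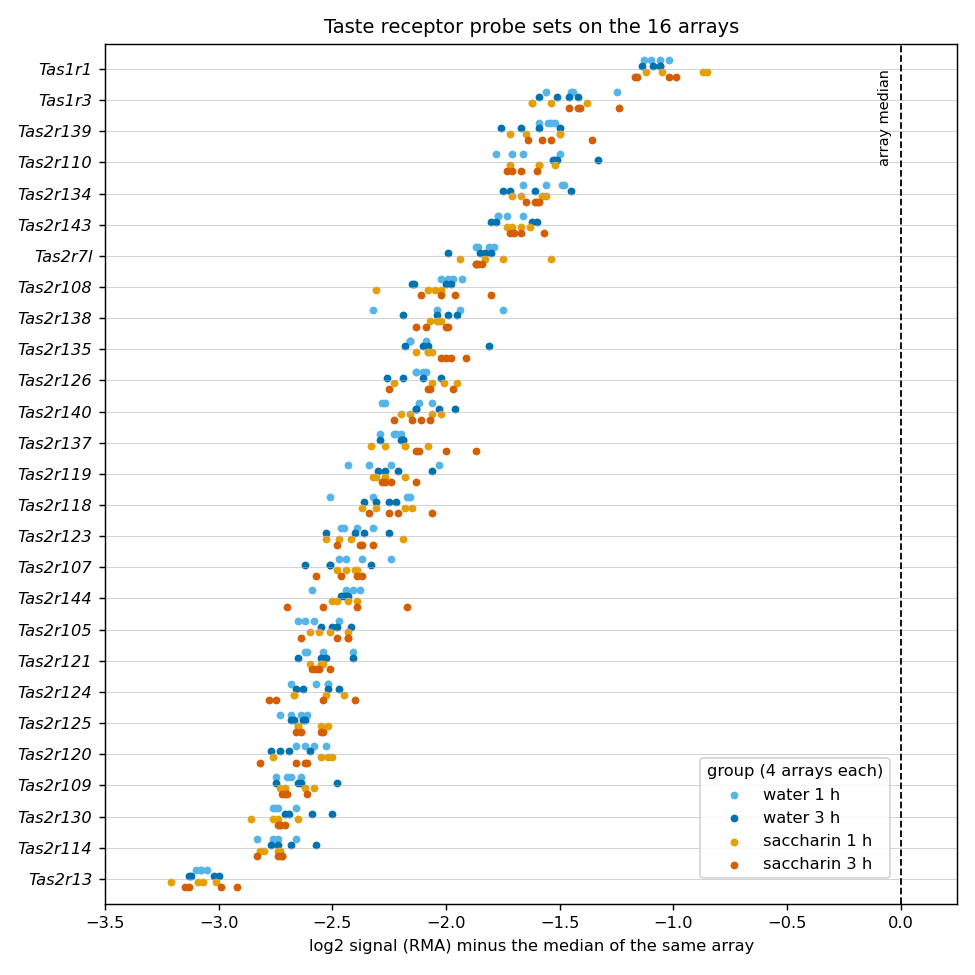
Log2 signal (RMA) of each taste receptor probe set minus the median of the same array (horizontal axis), 1 point per array and 1 row per gene, coloured by the 4 groups of 4 arrays. All points lie left of the dashed line at the array median, and the rows run from -1.05 for Tas1r1 to -3.07 for Tas2r13 on average.

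Tas1r1, the umami partner, was the brightest member at -1.05 against the array median. Its log2 signals were 4.10, 3.96, 4.07 and 4.06 at water 1 h and 4.02, 3.96, 4.06 and 4.07 at water 3 h. They were 4.0, 4.26, 4.26 and 4.05 at saccharin 1 h and 3.95, 4.07, 4.13 and 3.98 at saccharin 3 h. The highest arrays were C377 and C379 at saccharin 1 h, and all 4 groups overlapped. Saccharin 1 h less saccharin 3 h was 0.11 (95% interval -0.02 to 0.24, limma adjusted p = 0.721), and saccharin less water at 1 h was 0.10 (95% interval -0.04 to 0.23, adjusted p = 1.00).

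Tas1r3, the subunit that the sweet and the umami receptor share, stood at -1.46 against the array median. Its log2 signals were 3.55, 3.64, 3.67 and 3.91 at water 1 h and 3.52, 3.68, 3.66 and 3.62 at water 3 h. They were 3.50, 3.49, 3.75 and 3.56 at saccharin 1 h and 3.65, 3.66, 3.71 and 3.90 at saccharin 3 h. The groups overlapped in each comparison, with the highest arrays (C378 and C372) in different tastes and times. The change with time, 1 h less 3 h, was -0.15 after saccharin (95% interval -0.32 to 0.01) and 0.08 after water (95% interval -0.09 to 0.24). The interaction, the first of these less the second, was -0.23 (standard error 0.11, unadjusted p = 0.0493, adjusted p = 1.00) and did not pass the test.

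The brightest bitter receptor probe sets were Tas2r139 at -1.58, Tas2r110 at -1.60 and Tas2r134 at -1.60 against the array median. The dimmest were Tas2r130 at -2.71, Tas2r114 at -2.74 and Tas2r13 at -3.07. Tas2r13, the dimmest member, ranged over all arrays only from 1.90 to 2.19. Its group means were 2.04 ± 0.03 (SD, n = 4) at water 1 h, 2.05 ± 0.07 at water 3 h, 2.02 ± 0.09 at saccharin 1 h and 2.07 ± 0.11 at saccharin 3 h. Scatter between rats of one group was ordinary for this array, since the residual SD of the members ran from 0.059 to 0.137 with a median of 0.0946, against a median of 0.0931 for all probe sets tested.

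The signals of the bitter receptors were lower in the largest of their groups on chromosome 4. By GRCr8 the Tas2r members on chromosome 4 fell into 3 groups of neighbouring genes, parted where more than 50 protein-coding genes lie between 2 receptors. The largest group holds 23 taste receptor genes, of which 13 are members. Its members had a median of -2.58 against the array median and ran from -3.07 for Tas2r13 to -1.60 for Tas2r110. The second group holds 8, all members, with a median of -2.05 and a range from -2.45 for Tas2r144 to -1.58 for Tas2r139. Among these 8 are Tas2r138, the counterpart of the human receptor for phenylthiocarbamide, and Tas2r108 and Tas2r137. The GC content of the 300 bases at the gene start, 250 before it and 50 after, was lower in the group of 23, at 29.0% to 39.3% (median 35.4%, 12 genes), than in the group of 8, at 37.3% to 49.0% (median 41.6%, 8 genes). The third group is the pair Tas2r7l and Tas2r118, at -1.83 and -2.26 and both at 41.7% GC. Within the group of 23, Tas2r110, the brightest, had 31.0% GC and Tas2r13, the dimmest, 38.0%, while Tas2r140 and Tas2r120, both at 29.0%, stood at -2.12 and -2.64. In the group of 8, Tas2r139, the brightest, had the lowest GC content, and Tas2r126, with the highest, stood at -2.10. No correlation was taken within a group. Pooled over all groups, GC content and signal had a Pearson correlation of 0.61 and a Spearman correlation of 0.55 across the 26 members with such a window. Across the 24 Tas2r genes the values were 0.38 and 0.43. These pooled values include the differences between groups. The olfactory receptor genes, which are not taste genes, gave 0.45 and 0.41 over 958 probe sets, and the vomeronasal receptor genes gave lower values, 0.27 and 0.23 over 73 Vom1r and 0.16 and 0.25 over 51 Vom2r probe sets. Of the window's 300 bases, 250 lie before the modelled gene start, so it is mostly outside the modelled transcript. These are correlations across genes on the same arrays, genes are not independent replicates, and the part of base composition in the signal was not tested.

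**Figure D2:**
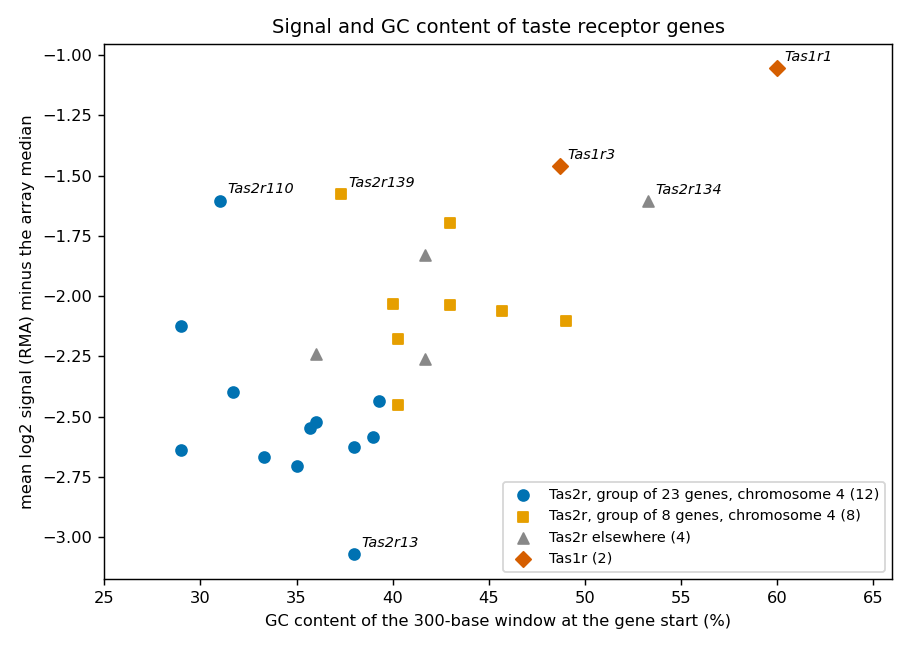
Mean log2 signal (RMA) minus the array median (vertical axis) against the GC content of the 300-base window at the gene start (horizontal axis, %), 1 point per gene for the 26 members with a window. Tas1r1, at 60.0% GC, is the highest point, and Tas2r110 lies apart from its neighbours of the group of 23, at 31.0% GC and -1.60.

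Taste receptors lay in the same range as the receptor families of smell and pheromone sensing. The median against the array median was -2.24 for the 27 taste receptors, -2.10 for 16 trace amine-associated receptors (Taar), -2.37 for 1126 olfactory receptor probe sets, -2.64 for 87 Vom1r and -2.54 for 55 Vom2r probe sets. Above the array median lay 0 of 27, 0 of 16, 4 of 1126, 1 of 87 and 0 of 55. A list of genes of eye, liver, sperm, muscle, pancreas and epithelium had a median of -1.34 over 20 probe sets, from -2.71 for Amy2a3, a pancreatic amylase, to 0.36 for Ckm, the muscle creatine kinase, with 2 of 20 above the array median. The tissue itself carried the marks of cortex, with 10 of 10 neuronal probe sets above the array median, from 2.58 for Fezf2 to 6.64 for Camk2a. Slc17a7, the vesicular glutamate transporter of cortical excitatory neurons, stood at 5.78. All 9 glial probe sets were also above it, from 1.14 for Aif1 to 6.28 for Slc1a2.

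**Figure D3:**
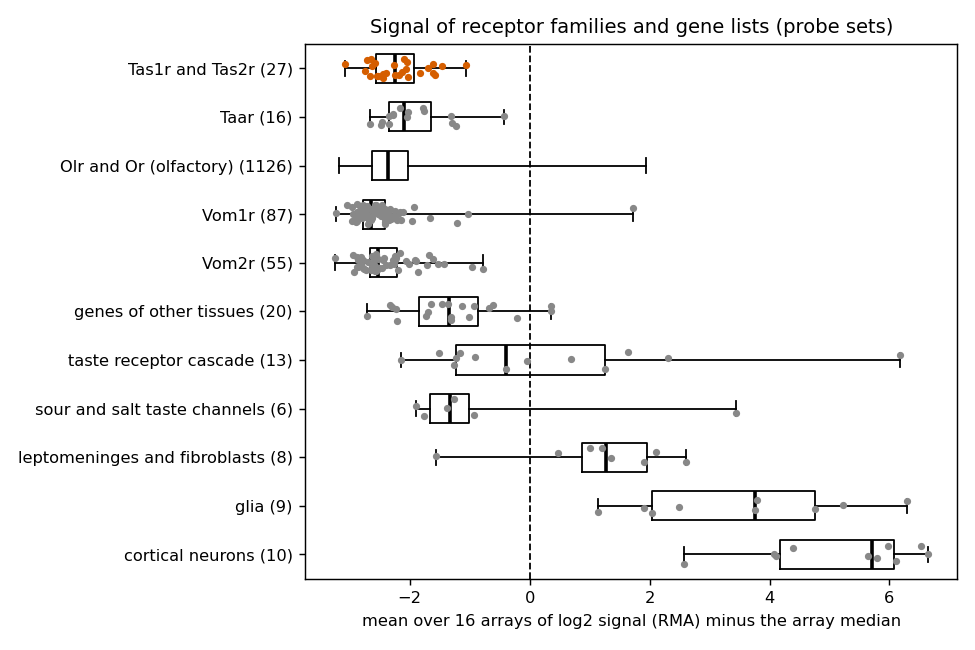
Mean over 16 arrays of the log2 signal (RMA) minus the array median (horizontal axis) for receptor families and gene lists, with the number of probe sets in brackets. Boxes span the quartiles around the median line, whiskers reach the lowest and highest probe set, and points are single probe sets (not drawn for the olfactory receptors). The taste receptors (median -2.24) overlap the olfactory and vomeronasal receptors and lie below all neuronal and glial markers.

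The genes that carry the taste signal onward gave a mixed picture. Of 15 cascade genes, 12 were measured with 13 probe sets, and Trpm5, Calhm3 and Rgs21 had no probe set paired with them alone. Below the array median lay 8 probe sets, from Itpr3 at -0.04, next to the median, to Gnat3, gustducin, at -2.14. Between these stood Gnb3 at -0.39, P2rx2 at -0.91, Plcb2 at -1.17, Calhm1 at -1.23 and P2rx3 at -1.52. Pou2f3, the transcription factor that taste cells for sweet, umami and bitter need, stood at -1.26. Above the array median lay 5, Gnb1 with 2 probe sets that disagreed (6.17 and 1.64), Gng13 at 2.30, Entpd2 at 1.26 and Trpm4 at 0.69. None of these is limited to taste cells, and whether the 8 below are was not examined. The limma test called 0 of these 13 changed in any of the 7 comparisons. Of 6 probe sets for sour and salt channels and enzymes, 5 lay below the array median, such as the proton channel Otop1 at -1.76 and the epithelial sodium channel subunit Scnn1a at -1.90. The sixth, Car4, a carbonic anhydrase also found in brain vessels, stood at 3.43. Car4 was the only gene of the 2 lists to pass in any comparison, higher at 1 h than at 3 h by 0.30 averaged over tastes (adjusted p = 0.0231).

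No taste receptor passed the test for a change with time following drinking. After saccharin, limma called 0 of 27 members different between 1 h and 3 h, where 0.348% of all 15209 probe sets were called. After water it called 0 of 27, against 0.125%. Averaged over both tastes it called 0 of 27, against 1.01%. At an unadjusted p under 0.05 the members numbered 1 after saccharin, 1 after water and 3 averaged over tastes, against 7.98%, 7.23% and 12% of all probe sets. One member is 3.70% of 27 and 3 members are 11.1%, so these counts were not above the background. The median member difference, 1 h less 3 h, was -0.013 after saccharin and 0.0022 after water, and that over all probe sets was 0.0023 and -0.0023. The early genes changed with time on the same arrays. They stood at 1.06 to 4.27 against the array median, above every member. They therefore do not tell whether a change would register on probe sets as dim as the members. Of 6 early genes, limma called 5 higher at 1 h in either taste. Among them was Arc, the activity-regulated synaptic gene, by 1.85 after saccharin (adjusted p = 1.82e-04) and by 1.17 after water (adjusted p = 0.0311). Egr1, the brightest of the 6, was not called (adjusted p = 0.279 after saccharin and 0.899 after water).

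The intervals bounded how much the members could have moved. The 95% interval of the change with time lay wholly within 0.32 (log2) of 0, the fold change of the study's strict cut-off, for 26 of 27 members after saccharin and 26 of 27 after water, against 91.6% and 91.8% of all probe sets. Averaged over tastes it did so for 27 of 27, with no bound farther from 0 than 0.197 (log2), against 97.1%. On RMA values close to background a real change in RNA is understated, so these bounds hold for the signal and are looser for the transcript.

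Tas2r137, the counterpart of human TAS2R3, had the smallest p for time after saccharin. Its log2 signals were 2.94, 2.84, 3.05 and 2.77 at saccharin 1 h and 3.25, 2.95, 3.12 and 3.02 at saccharin 3 h. They were 2.91, 2.85, 2.83 and 2.95 at water 1 h and 2.92, 2.90, 2.93 and 2.84 at water 3 h. The saccharin groups overlapped through array C379 at 1 h, the other 3 arrays at 1 h lay below all 4 at 3 h, and the water groups overlapped throughout. The change after saccharin was -0.19 (95% interval -0.32 to -0.05, unadjusted p = 0.0106, adjusted p = 0.399). Averaged over tastes, 1 h less 3 h was -0.10 (unadjusted p = 0.0456, adjusted p = 0.402). Without saccharin 3 h array C366, its highest, the change after saccharin was -0.13 (adjusted p = 0.691). Over the alternative fits listed at the end it ran from -0.24 to -0.13. The lowest adjusted p was 0.219, without saccharin 1 h array C379.

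Tas2r135, a bitter receptor gene of the group of 8 on chromosome 4, was the only member whose arrays did not overlap between the times after saccharin, where 4.78% of all probe sets did not overlap. Between the times after water no member's arrays were apart (0 of 27), against 4.35%. Its signals were 3.04, 2.99, 3.08 and 3.02 at 1 h and 3.21, 3.11, 3.13 and 3.12 at 3 h. At water 1 h they were 2.95, 2.99, 2.97 and 3.00, and at water 3 h 3.30, 3.00, 2.94 and 3.05. Every saccharin array at 3 h was above every one at 1 h, while the water arrays overlapped and their spread at 3 h came from array C365. The difference averaged over tastes was -0.10 (95% interval -0.19 to -0.01, unadjusted p = 0.0287, adjusted p = 0.332), and -0.064 without C365 (adjusted p = 0.480). Over the alternative fits it ran from -0.12 to -0.064. Tas2r120, of the group of 23, had an estimate of the other sign, with 2.52 ± 0.06 (SD, n = 4) at water 1 h, 2.42 ± 0.06 at water 3 h, 2.53 ± 0.11 at saccharin 1 h and 2.44 ± 0.09 at saccharin 3 h. Its average difference of 0.10 (95% interval 0.01 to 0.19) had the smallest p of the members for time (unadjusted p = 0.0247, adjusted p = 0.314).

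Markers of the leptomeninges and fibroblasts had overlapping ranges that lay somewhat higher at 1 h. Their mean log2 signal over 8 genes was 6.22 to 6.51 at water 1 h and 5.97 to 6.30 at water 3 h, and 6.32 to 6.60 at saccharin 1 h and 5.71 to 6.38 at saccharin 3 h. Of these markers 7 of 8 lay above the array median, from Lum at -1.56 to Col1a2 at 2.61, and limma called 0 of 8 between the times. The neuronal markers were level at 10.2 to 10.4 on every array. The part of such tissue in the members' signals was not tested, and in a whole-tissue sample fewer cells of a type and less RNA per cell cannot be told apart.

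**Figure D4:**
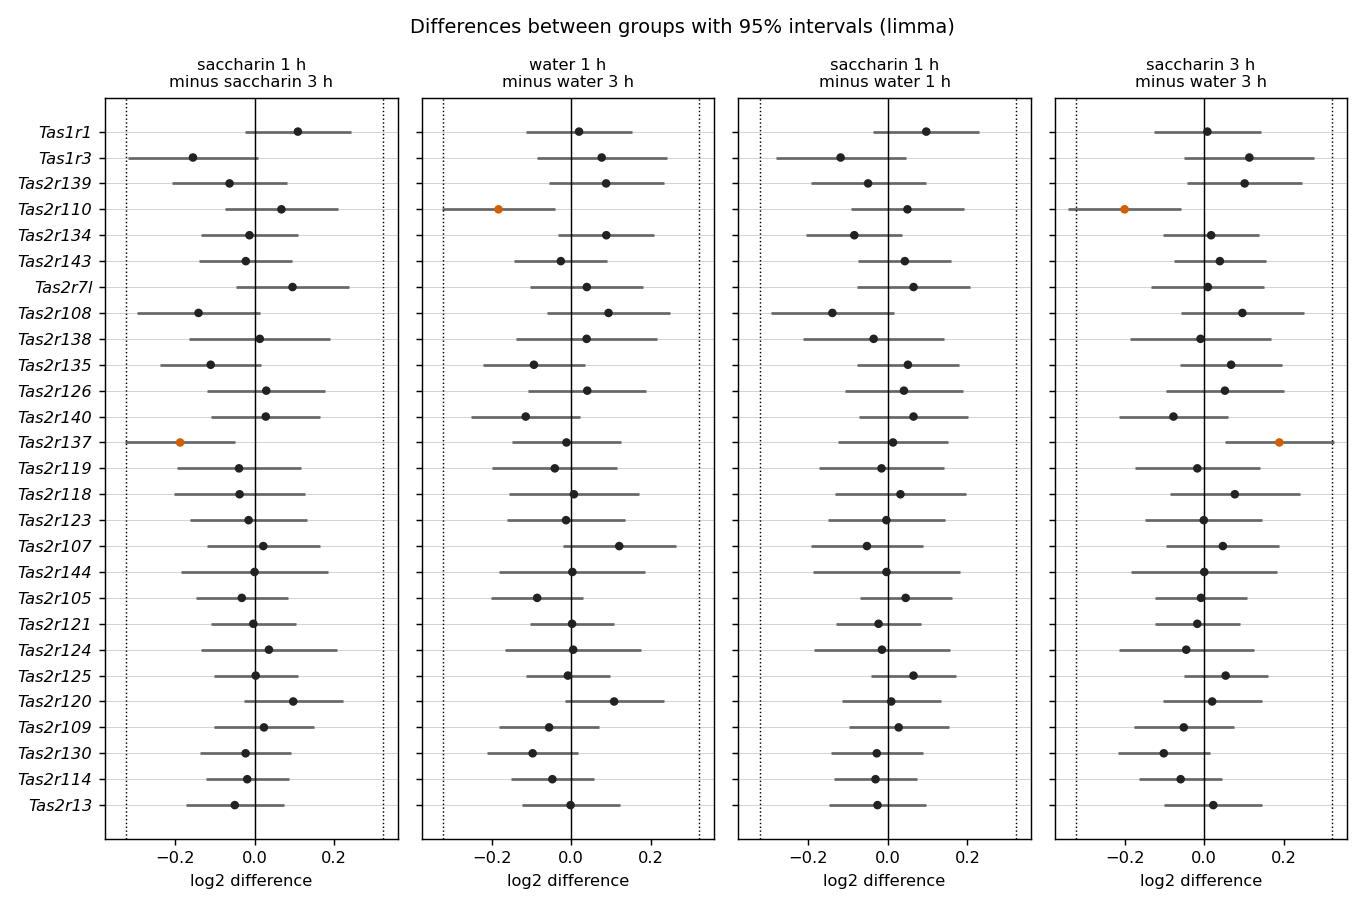
Log2 differences (limma, horizontal axes) of the 27 taste receptor probe sets in 4 comparisons, with 95% intervals as bars. Orange points have an unadjusted p under 0.05, none passed after adjustment, and the dotted lines lie 0.32 either side of 0, which only intervals of Tas2r110 (to -0.34 between tastes at 3 h) and Tas2r137 cross.

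No receptor passed the test between the tastes. Limma called 0 of 27 members between saccharin and water at 1 h and 0 of 27 at 3 h, and 0% of all 15209 probe sets in either comparison. At an unadjusted p under 0.05 the members numbered 0 at 1 h and 2 at 3 h (7.41% of 27), against 3.06% and 3.37% of all probe sets. The share at 3 h was above the background and rests on 2 members. Averaged over times 0 of 27 were called, with 1 (3.7%) at an unadjusted p under 0.05 against 3.39%. The 95% interval lay within 0.32 of 0 for 27 of 27 members at 1 h and 25 of 27 at 3 h, against 94.4% and 94% of all probe sets. Averaged over times it did so for 27 of 27, against 98.7%. The median member difference, saccharin less water, was -0.0032 at 1 h and 0.0090 at 3 h, beside 0.0025 and -0.0034 over all probe sets.

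At 1 h the member with the smallest p was Tas2r108, the counterpart of human TAS2R4. Its signals were 3.10, 2.81, 3.09 and 3.02 after saccharin and 3.09, 3.11, 3.20 and 3.17 after water. The lowest value was saccharin array C377, and the groups overlapped, as at 1 h those of every member did (0 of 27 apart, against 1.5% of all probe sets). The difference was -0.14 (95% interval -0.29 to 0.01, unadjusted p = 0.0736, adjusted p = 1.00), and -0.073 without C377. Over the alternative fits it ran from -0.17 to -0.073. At 3 h its means were 3.15 ± 0.14 (SD, n = 4) after saccharin and 3.05 ± 0.09 after water, which is the opposite order and also within the spread.

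At 3 h the groups did not overlap for 2 of 27 members, Tas2r110 and Tas2r137, a larger share than the 1.91% of all probe sets. Tas2r110 gave 3.52, 3.38, 3.45 and 3.41 after saccharin and 3.59, 3.58, 3.79 and 3.60 after water. All saccharin arrays lay below all water arrays, and water array C369 stood above the rest. The difference was -0.20 (95% interval -0.34 to -0.06, unadjusted p = 0.00834, adjusted p = 0.999), and -0.15 without C369 (adjusted p = 1.00). Over the alternative fits it ran from -0.23 to -0.15. At 1 h the same gene gave 3.40, 3.52, 3.61 and 3.51 after saccharin and 3.34, 3.37, 3.62 and 3.50 after water, groups that overlapped with a difference of 0.05. Between the times after water Tas2r110 had the smallest p of the members, with a change of -0.18 (95% interval -0.32 to -0.04, adjusted p = 0.539). Tas2r137 was higher after saccharin than after water at 3 h on every array, by 0.19 (95% interval 0.05 to 0.33, adjusted p = 0.999). Averaged over times it differed by 0.10 (unadjusted p = 0.0430, adjusted p = 1.00). Neither gene passed the test across all probe sets.

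The time courses after the 2 tastes were compared through the interaction. The interaction of taste and time was called for 0 of 27 members and for 0% of all probe sets. At an unadjusted p under 0.05 there were 3 members, 11.1% of 27, against 2.96% of all probe sets. That share was above the background and rests on 3 genes. They were Tas2r110 at 0.25 (95% interval 0.05 to 0.45, adjusted p = 1.00), Tas2r108 at -0.23 (95% interval -0.45 to -0.02, adjusted p = 1.00) and Tas1r3. The 4 groups are shared among these comparisons, so that a high or low group enters several of them. The interval was wider here, and it lay within 0.32 of 0 for 21 of 27 members, against 75.3% of all probe sets.

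Taken as a family, the receptors had nearly the same median in each group. The median of the 27 members against the array median was -2.26 ± 0.08 (SD, n = 4) at water 1 h, -2.24 ± 0.03 at water 3 h, -2.26 ± 0.05 at saccharin 1 h and -2.22 ± 0.06 at saccharin 3 h. The single arrays ran from -2.32 to -2.15, and the 4 groups overlapped. Around the group means, the 351 pairs of members had a median correlation of 0.0837 over the 16 arrays, from -0.667 for Tas2r124 with Tas2r114 to 0.785 for Tas2r108 with Tas2r126. The median was 0.0411 for olfactory receptors and 0.0056 for Vom1r probe sets. Tas2r108 and Tas2r137, whose gene models overlap, correlated at 0.378. All points share the same arrays and their normalization, and these correlations are given as a description.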

How the data were processed

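Total RNA was extracted from the GC. By the study's account cDNA was made, and biotin-labelled cRNA transcribed from it was hybridised to Affymetrix RaGene 1.1 ST v1 arrays, 1 per rat. The authors read the raw files with affy, whose version the sources used here do not give, made the chips alike by quantile normalization, and deposited log2 values summarised per probe set by RMA. GEO's platform annotation names 1 gene for 15209 of the 28826 probe sets, several for 306 and lists no entry for 13311. Whether that annotation was made for the same version of the array as the one the methods name was not settled, and every gene name rests on it. The 4 group means were fitted in limma 3.58.1 (R 4.3.3) with no block, 12 residual degrees of freedom and an empirical Bayes prior, after the methods of the study. A call is a two-sided p under 0.05 after Benjamini-Hochberg adjustment over all 15209. The fit was tested on simulated data, with added changes larger than any member's estimate here. The changed probe sets were drawn from all those tested. That does not show what the fit would detect for small changes in dim probe sets. Precision is limited by the number of arrays, of which any 2 correlated at 0.994 to 0.997.

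Genes named are both Tas1r members, the 3 brightest and 3 dimmest Tas2r, the member with the smallest p in each of 7 comparisons, members with an unadjusted p under 0.05 averaged over tastes or times, early genes, and up to 4 genes of each list by highest and lowest mean. Further list genes (Itpr3, Gnb3, P2rx2, P2rx3, Plcb2, Calhm1, Pou2f3, Entpd2, Trpm4, Otop1, Slc17a7) were chosen after their values were seen. The same holds for members named for overlap, neighbours, GC content, correlation or groups that lay apart. The members and lists were chosen with earlier results of these data known. Gene starts come from RefSeq (GRCr8). The deposited table holds no coordinates.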

Additional observations from a re-analysis of the deposited data

Results flagged for a closer look

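In 108 groups of 4 arrays (27 members in 4 groups), 2 held an array whose gap to the nearest other array was large for the range of its group. Chance alone gives about 1 in 20, which is 5.4 of the 108, so fewer were flagged than by chance. For Tas2r110, water 3 h array C369 stood at 3.79 and the other 3 arrays at 3.58 to 3.60. For Tas2r7l, a bitter receptor gene, water 3 h array C365 stood at 3.12 and the others at 3.27 to 3.30.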

How the results depend on the processing

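By adjusted p, 0 members were called in each of 165 alternative fits of the comparisons, with all probe sets of the array, a filter on dim probe sets, each array centred, quantile normalization repeated, a trend and robust prior, array weights, the 8 arrays of a comparison alone, least squares, and each array left out in turn (0 to 0). A change of 0.32 (log2) or more with a p up to 0.05 before adjustment was also met by 0 members in all 7 comparisons. The study's cut-off has this fold change and p, and its methods do not say whether that p was adjusted. At an unadjusted p under 0.05 alone it was 1 after saccharin and 1 after water between the times, 2 between tastes at 3 h, 3 for the interaction, 3 for time and 1 for taste averaged. The median level was -3.28 against the median of the probe sets with 1 gene, in place of all, and ran from -2.26 to -2.23 with 1 array left out. Only 7 members passed the filter at the 20th percentile. The 9 single differences chosen for their small p kept their direction in all 205 alternative values and passed in none, with a lowest adjusted p of 0.150 (Tas2r120 over time, without saccharin 1 h array C379). The alternatives refit the same arrays on which the 9 were chosen, and several leave the estimate itself unchanged. The kept direction is therefore no independent evidence for these differences. No paired analysis was possible because each array number occurs once. The dim signals and 4 arrays a group limit what could be seen.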
